A study of Mus musculus with 12 samples.

Results

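The Hox genes of the 4 mouse Hox clusters are described here in neurosphere cultures. Members were all rows of the gene tables whose symbol is Hox followed by a cluster letter (a, b, c or d) and a number. They made up 39 of 24525 genes, and each had a row in all 6 libraries. Values are given for 38 of them, 10 in the HoxA cluster, 10 in HoxB, 9 in HoxC and 9 in HoxD, and all counts and sums of Hox genes below are over these 38.

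Neurospheres are floating cultures of neural stem/progenitor cells (NSPCs). The cells came from E14.5 C57BL/6 embryos, were grown with EGF and bFGF and were taken at passage 1. The labels call the tissue brain and the methods call it fore brain. There were 3 wild-type and 3 Ythdf2-/- libraries of fragmented mRNA, the input fraction of an m6A-IP experiment, and the 6 IP samples were not analysed here. Ythdf2 encodes a reader of m6A that promotes decay of marked mRNA. The mutant allele lacks the stretch between LoxP sites placed around the 5′ UTR and exon 1, removed in earlier generations with a Cre active in the whole body. The Ythdf2-/- embryos came from crosses of heterozygotes and carried the deletion in all tissues. Wild-type cultures carried no deletion. Nothing in the labels says which libraries came from littermates, so p-values measure the spread between these samples.

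Hox genes encode homeodomain transcription factors. Within a cluster the genes are numbered from 1 to 13 along the chromosome, genes with the same number in different clusters are paralogs, and low-numbered genes are used further forward in the embryo than high-numbered ones. In the vertebrate nervous system they pattern the hindbrain and spinal cord, and the forebrain and midbrain form in front of their expression. Polycomb proteins hold the clusters silent where they are not used, and TALE homeodomain proteins (Pbx, Meis and Pknox) bind DNA together with Hox proteins.

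The members share the homeobox, and a read that falls in a stretch identical between paralogs cannot be given to a single gene. Only 7 pairs of Hox genes shared a run of 36 identical bases or more in RefSeq transcripts (GRCm38.p6, the assembly also called mm10), all of them in coding sequence. The longest, of 52 bases, was between Hoxa6 and Hoxb4. In 35 of 38 genes at least 95% of the 50-base words of every transcript occurred in no other RefSeq gene. The other 3, Hoxa11 (76.8%), Hoxb2 (81.9%) and Hoxa3 (86.3%), overlap RNAs of the opposite strand.

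Wild-type replicate 3 stood apart from the other libraries over all genes. On the principal component that held 74.2% of the variance it lay at 91 and the others between -30.6 and -6.04.

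The Hox clusters were close to silent in all 6 libraries. The libraries held 11029827 to 13185778 counted reads, and the 38 Hox genes took 8, 9 and 9 reads in the wild-type libraries and 1, 2 and 14 in the Ythdf2-/- libraries, in the order of replicates 1 to 3. Together these are 43 of 73421673 reads. Of the 38 genes, 28 had no read in any library (73.7%), against 5991 of all 24525 genes (24.4%). All 38 had at most 10 reads in every library, as did 43.5% of all genes. None of them reached 1 CPM (the usual depth-scaled read count, here with edgeR's TMM factors) in any library. A count of 0 in 1 library allows a level of up to 0.228 to 0.272 CPM (3 reads), and a count of 0 in all 6 allows up to 0.0409 CPM. These limits cover counting error only.

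**Figure D1:**
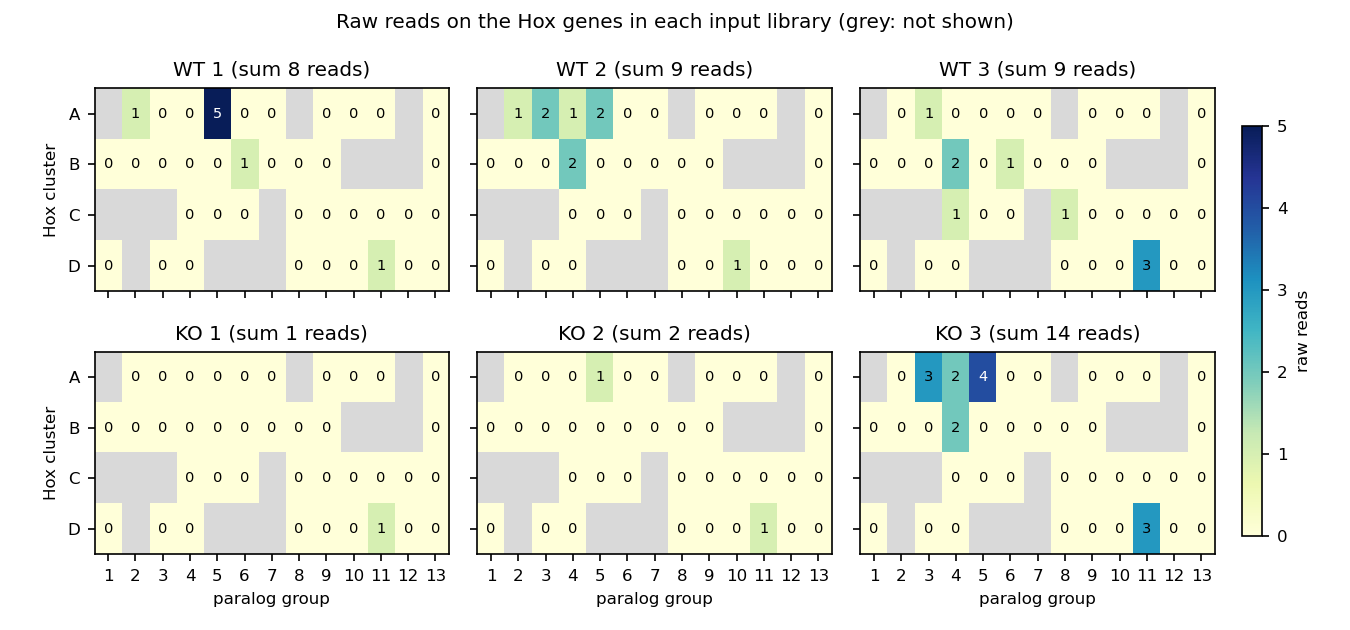
Raw reads on the 38 Hox genes in each library, with clusters A to D as rows and paralog groups 1 to 13 as columns (grey squares are positions not shown). Most squares hold 0, and the highest value is the 5 reads of Hoxa5 in wild-type replicate 1.

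Of these genes, Hoxa5 had the most reads, 12 in all. Hoxa5, which patterns the cervical and upper thoracic level, had 5, 2 and 0 reads in the wild-type libraries and 0, 1 and 4 in the Ythdf2-/- libraries, each in replicate order. Both genotypes held a library at 0, and they overlapped. The level was 0.194 ± 0.217 CPM in wild type and 0.132 ± 0.169 CPM in Ythdf2-/- (SD, n = 3 each). Per kilobase of transcript this is a mean of 0.0867 RPKM over the 6 libraries, against 17.3 for Otx2 and 16.8 for Pax6, transcription factors of the rostral brain and of cortical progenitors. By RPKM, Hoxa5 stood at the percentile 36.9 of all genes and 16.5 of the genes with any read. Its transcript had no 36-base word in common with another RefSeq gene.

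A noncoding RNA from the low-numbered end of HoxA was seen in every library. Hotairm1, which is transcribed on the strand opposite to the Hox genes, had 5, 8 and 1 reads in wild type and 1, 7 and 5 in Ythdf2-/-, in the same order. Its length is 253 bases, and its mean over the 6 libraries was 1.41 RPKM. By RPKM it stood at the percentile 53.1 of all genes and 37.9 of the genes with any read. The libraries were stranded, but the strand setting of the counting is not given in the sources used here. Where RNAs of opposite strands overlap, their reads may thus not be told apart. Hotairm1 (chr6:52158524-52162020) does not overlap Hoxa2 (chr6:52162417-52164831). Inside the cluster spans 17 genes other than Hox genes had a row, all of them noncoding RNAs or miRNA precursors. Besides Hotairm1, Mira had 1 read in each of wild-type replicates 2 and 3, Hoxaas2 had 1 in wild-type replicate 1, Gm11538 had 1 in Ythdf2-/- replicate 1, and 13 had none. Mature miRNAs are not captured in mRNA libraries.

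The other members with a read were found at both ends of the clusters. Paralog groups 1 to 5 held 30 reads on 6 of 14 genes, of which 12 reads were on Hoxa5, and groups 6 to 13 held 13 reads on 4 of 24 genes. In wild-type replicate 3 and Ythdf2-/- replicate 1, groups 6 to 13 held more reads than groups 1 to 5, 5 against 4 and 1 against 0. HoxA held 23 of the 43 reads, HoxD 10, HoxB 8 and HoxC 2. Hoxa2, Hoxa3 and Hoxa4 had 0 to 3 reads in a library and 2, 6 and 3 reads in all. Hoxb1 and Hoxd1, of paralog group 1, had no read in any library, and neither had Hoxb2, Hoxb3, Hoxd3, Hoxb5 or Hoxc5.

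Outside HoxA the reads were few. Hoxb4 and Hoxb6 had 6 and 2 reads in all, Hoxc4 and Hoxc8 had 1 read each, both in wild-type replicate 3, and Hoxd10 had 1 read. Hoxd11, which acts in limb and posterior axis patterning, was the exception at the high-numbered end. It had 1, 0 and 3 reads in wild type and 1, 1 and 3 in Ythdf2-/-, in replicate order, so 5 of 6 libraries held at least 1. Levels of Hoxd11 reached at most 0.275 CPM, near the level of 3 reads. The transcripts of Hoxd11 and Hoxb4 share 36-base words with 40 and 19 other genes. How the counting treated reads with several matches is not given in the sources used here. The part of such reads in these counts was not tested. All other genes of groups 9 to 13 except Hoxd10 had 0 reads in every library, among them all 4 group 13 genes, which mark the tail end of the body axis.

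Many genes beyond the cluster ends were expressed, while the clusters and 11 of their 16 closest neighbours were near 0. Inside the 4 cluster spans (96918 to 173939 bp, on chromosomes 6, 11, 15 and 2 of GRCm38), none of the 17 noncoding genes reached 10 reads in every library. Of the 40 flanking genes, 5 on each side of each cluster, 23 had at least 10 reads in every library and 10 had none. At the low-numbered end, Skap2, a cytoplasmic adaptor gene, lay 142818 bp from HoxA and had 804 to 1215 reads. Mtx2, a gene for a mitochondrial outer membrane protein, lay 60670 bp from HoxD and had 202 to 489. Smug1, a uracil-DNA glycosylase gene, lay 116434 bp from HoxC and had 248 to 364.

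At the high-numbered end, Calcoco1 lay 198953 bp from HoxC and had 660 to 1779 reads, and Lnpk, which encodes lunapark of the endoplasmic reticulum, lay 88767 bp from HoxD and had 510 to 733. Of the genes closest to the clusters, some were expressed and others had no read. Evx2, a homeobox gene 6705 bp from HoxD, and Hottip, a noncoding RNA 1895 bp from HoxA, had 0 reads in every library, and so had Evx1os, Ttll6, Gm11529, Mir688 and 9430019J16Rik. Halr1 had 0 to 4 reads, D930007P13Rik 0 to 3, Skap1 0 to 1 and Calcoco2 1 to 7. Of the 16 nearest genes, 2 on each side of each cluster, 5 had at least 10 reads in every library (Skap2, Smug1, Mtx2, Calcoco1 and Lnpk) and 7 were at 0.

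The flanks of different clusters carry members of the same gene families. The families named here were picked after their values were seen. Some had members at or near 0, among them Evx1 and Evx2 (0 reads), Skap1 beside Skap2, Calcoco2 beside Calcoco1, and Nfe2 (0 to 12 reads) beside Nfe2l2. The chromobox genes Cbx3, Cbx1 and Cbx5, which encode HP1 proteins of heterochromatin, flank HoxA, HoxB and HoxC and had 4072 to 6499, 395 to 505 and 6168 to 9098 reads. The RNA-binding protein genes Hnrnpa2b1, Hnrnpa1 and Hnrnpa3 flank HoxA, HoxC and HoxD and had 9492 to 15253, 444 to 655 and 3732 to 6366 reads. The ATP synthase subunit genes Atp5g1, Atp5g2 and Atp5g3 flank HoxB, HoxC and HoxD and had 629 to 2087, 2122 to 4647 and 1213 to 4969 reads. The sorting nexin genes Snx10 and Snx11 flank HoxA and HoxB and had 395 to 540 and 255 to 317 reads, and the transcription factor genes Atf7 and Atf2 flank HoxC and HoxD and had 922 to 1409 and 687 to 984. None of the 23 expressed neighbours had groups that did not overlap, where the shares over all genes tested were 5.24% higher and 4.92% lower in Ythdf2-/-. A count of 0 among so few genes is near these shares.

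**Figure D2:**
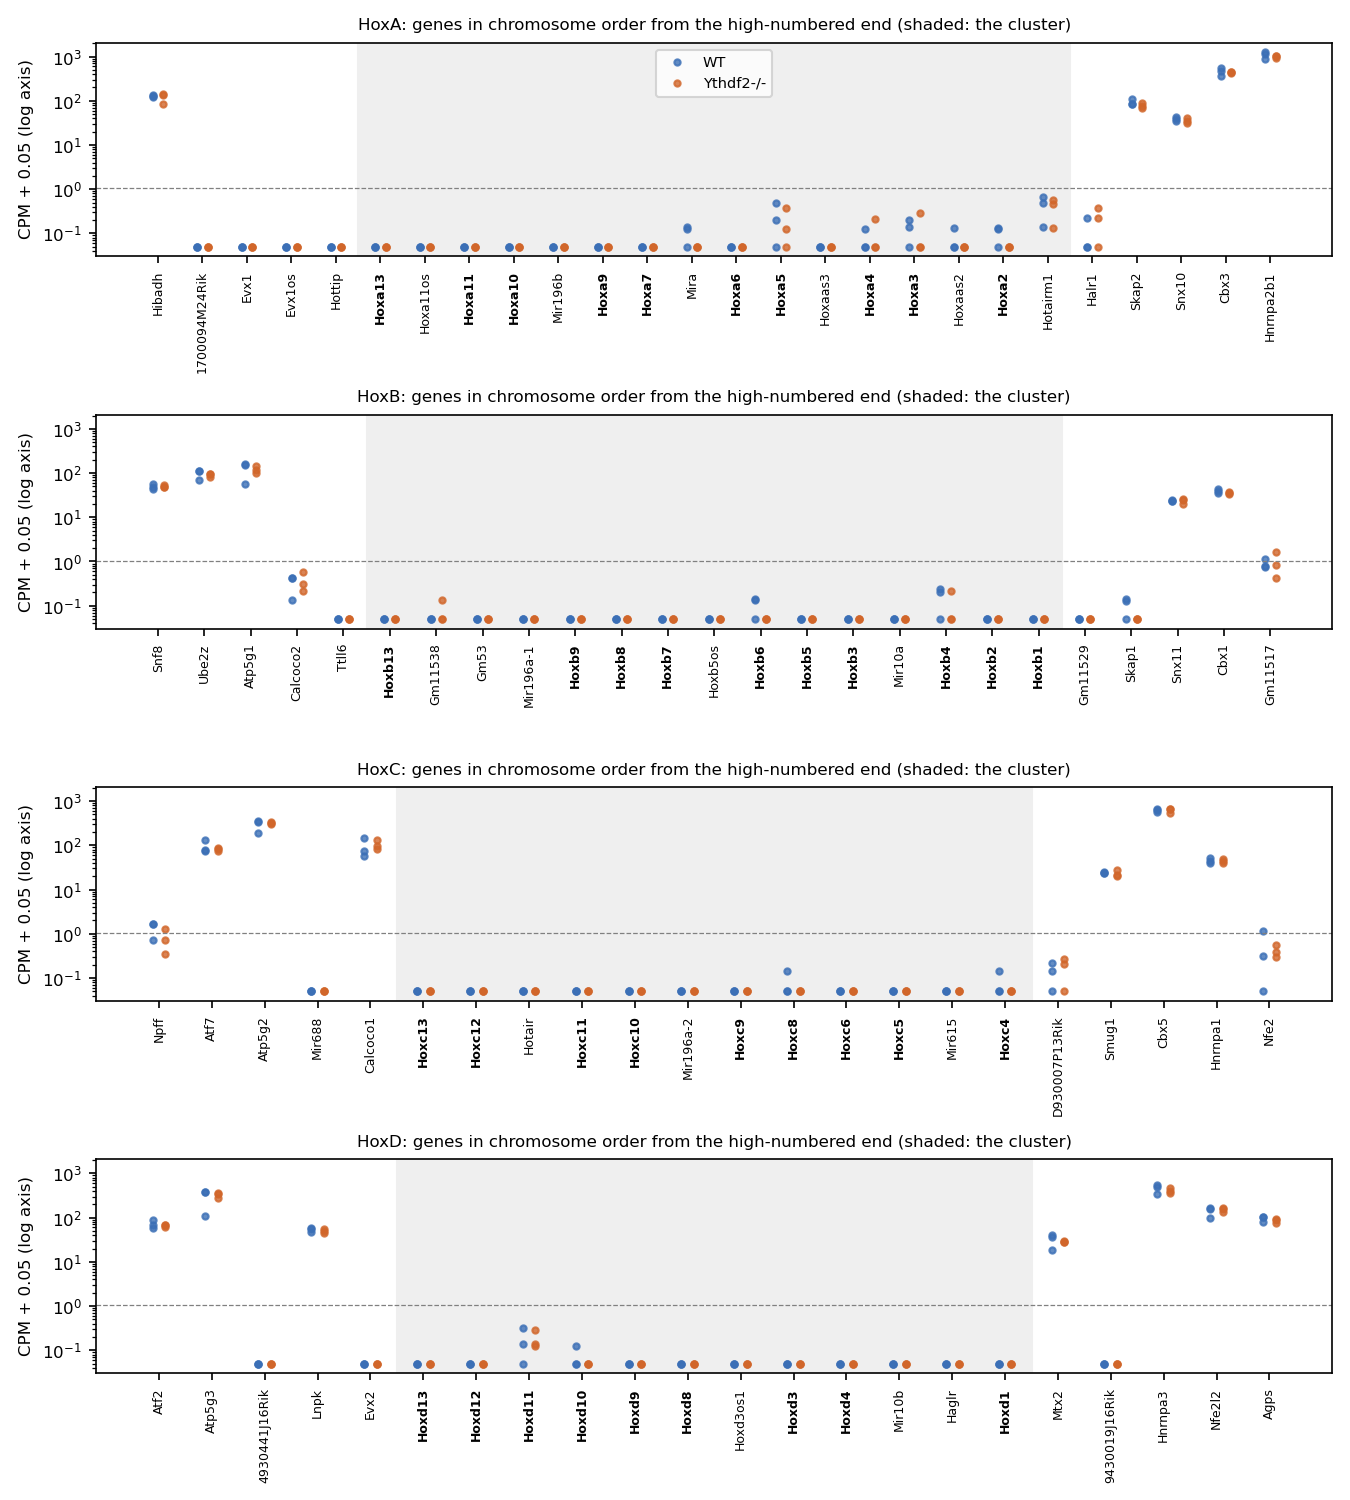
CPM + 0.05 (log axis) of the genes inside each Hox cluster (shaded, Hox genes in bold) and of the 5 nearest genes on each side, in chromosome order from the high-numbered end, with 1 point per library (wild type blue, Ythdf2-/- orange, dashed line at 1 CPM). All genes in the shaded spans stay under 1 CPM, while 23 of the 40 neighbours had at least 10 reads in every library.

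Promoter sequence was read for the members that the RefSeq table holds. The 250 bases before the transcript start were given for 22 of the 38 genes, in 24 windows. HoxB was covered by Hoxb1, Hoxb4 and Hoxb8 alone and HoxC by Hoxc4 alone, so most windows were of HoxA or HoxD. CpG content was counted, since CpG-rich promoters are where Polycomb complexes are known to bind. The median window had 12.5 CpGs and an observed to expected CpG ratio of 0.72, against 6 CpGs and 0.38 over 32536 windows of all genes. A ratio of 0.6 or more was found in 13 of the 24 Hox windows (54.2%) and in 34.2% of all windows. The windows ranged from 35 CpGs before Hoxa13 to 2 in the poorer window of Hoxd11, and Hoxd13, a paralog of Hoxa13, had 31. The window of Hoxa5, with the most reads of the genes above, had the highest ratio, 1.11, with 28 CpGs. It is shown with its CpGs in capitals, at chr6:52204588-52204837 on the minus strand.
Hoxa5 promoter: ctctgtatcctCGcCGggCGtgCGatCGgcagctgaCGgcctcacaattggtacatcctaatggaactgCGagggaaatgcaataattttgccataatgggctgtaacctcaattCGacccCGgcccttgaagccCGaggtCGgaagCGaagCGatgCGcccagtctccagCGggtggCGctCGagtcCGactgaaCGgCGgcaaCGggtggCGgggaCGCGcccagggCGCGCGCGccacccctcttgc
A CpG count describes sequence and says nothing about methylation or binding, which were not measured in these files.

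Whether Hox levels differed between genotypes was asked next, and the data could hardly address it. The targeted gene was checked beforehand: Ythdf2 had 840 to 999 reads in the wild-type libraries and 137 to 198 in the Ythdf2-/- libraries. Its log2 fold change was -2.66 (SE 0.18, adjusted p = 0.0547, edgeR's quasi-likelihood test), with no overlap between the groups. A positive value means a higher level in Ythdf2-/-. None of the 38 Hox genes passed edgeR's filterByExpr, so 0 were tested among 13112 genes. In that fit 0 genes in all were called at an adjusted p under 0.05 (0%), and 476 had an unadjusted p under 0.05 (3.63%). DESeq2 called 31 genes.

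Without the filter, 10 Hox genes with at least 1 read entered the fit of 18534 genes. Of these 0 were called, where the share over all genes was 0.0054%. At an unadjusted p under 0.05 there were 0 Hox genes by edgeR, where the share over all genes was 3.35%, and 0 by DESeq2, where it was 5.56%. Counts of 0 among 10 genes are near these shares. For Hoxa5 the log2 fold change was -0.52 (SE 1.29, adjusted p = 0.998, edgeR's quasi-likelihood test). The exact two-sided permutation test of its CPM gave p = 0.7, where 3 libraries against 3 cannot go below 0.1. The estimate changed sign without wild-type replicate 1 (0.65), was 0.01 without Ythdf2-/- replicate 1 and was -2.05 without Ythdf2-/- replicate 3. It thus depended on single libraries, and no difference in Hoxa5 can be read from it. In no Hox gene did the 3 libraries of 1 genotype all lie above those of the other, where the shares over all genes in the fit were 4.46% higher and 4.82% lower.

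Summed over the 38 genes, the Hox level was 0.732 ± 0.0797 CPM in wild type and 0.453 ± 0.584 CPM in Ythdf2-/- (SD, n = 3 each). Wild-type replicates 1 to 3 had 0.685, 0.687 and 0.824 CPM and Ythdf2-/- replicates 1 to 3 had 0.0853, 0.148 and 1.13 CPM, so the genotypes overlapped. The highest and the lowest library were both Ythdf2-/-, and without replicate 3 the Ythdf2-/- mean was 0.117 CPM. In wild type 10 genes had a read and in Ythdf2-/- 5, from 26 and 17 reads. The libraries also differed in reads on 4 Y-linked genes. Wild-type replicates 1 and 2 and Ythdf2-/- replicate 3, with 1111 to 2147 such reads, had 0.685 to 1.13 CPM of Hox reads, and the other 3 libraries, with at most 1 each, had 0.0853 to 0.824. These ranges overlapped. The labels give no sex, and the part of this property in the sums was not tested.

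**Figure D3:**
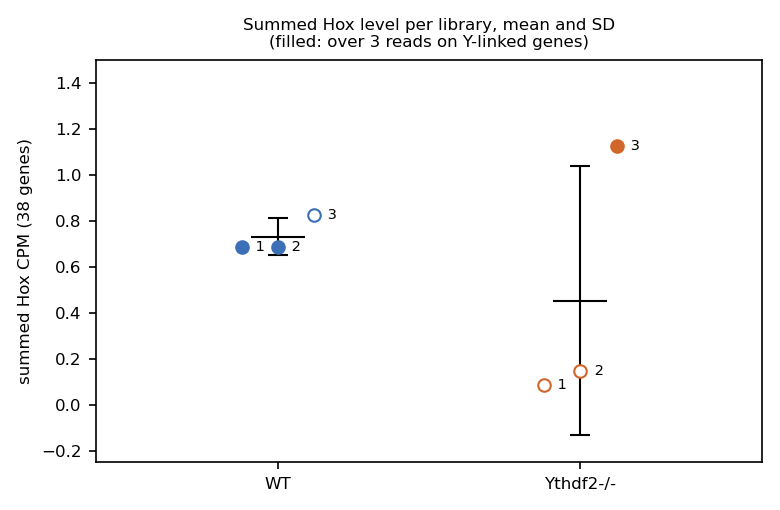
Summed CPM of the 38 Hox genes in each library, with the mean and SD of each genotype (filled points: libraries with over 3 reads on Y-linked genes, numbers: replicates). The wild-type points lie between 0.685 and 0.824 CPM, and the Ythdf2-/- points lie at 0.0853, 0.148 and 1.13, on both sides of them.

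Without wild-type replicate 3, the mean summed Hox level of wild type was 0.686 CPM and 8 Hox genes had a read there. Hoxc4 and Hoxc8, whose only reads came from this library, then had none. None of the 38 genes reached 1 CPM with or without it.

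Regional markers were read from the same libraries to place the Hox counts. Some forebrain genes were on: 6 of 13 listed genes had at least 1 CPM in every library and 1 had no read. Pax6, a regulator of cortical progenitors, had 521 to 1012 reads, Otx2, required for the rostral brain, 274 to 600, Lhx2, a selector gene of the cortex, 297 to 700, and Six3, a gene of the anterior forebrain, 165 to 286. Emx2 and Otx1 also passed 1 CPM in every library. Emx1 and Fezf2, markers of the dorsal telencephalon, and Hesx1 were at or near 0, with 0 to 4 reads in a library, and Nkx2-1 had 2 to 6. The marks of forebrain thus rested on part of the list. Silent Hox genes do not tell forebrain from midbrain, as both form in front of Hox expression. Dlx1, Dlx2 and Gsx2, genes of the ventral telencephalon, were low and had the most negative log2 fold changes of the 9 genes of the list that passed the filter. Dlx1 had 11, 16 and 23 reads in wild-type replicates 1 to 3 and 7, 7 and 9 in Ythdf2-/- replicates 1 to 3, without overlap, and a log2 fold change of -1.20 (SE 0.44, unadjusted p = 0.0319, adjusted p = 0.999, edgeR's quasi-likelihood test). Gsx2 had 13, 21 and 27 and then 13, 13 and 2 reads, and its CPM did not overlap by a narrow margin (1.11 CPM in both nearest libraries, log2 fold change -1.20, SE 0.67). Dlx2 had 16 to 41 and 7 to 17 reads, which overlapped (-1.27, SE 0.56). None of the 3 passed the test. Over all genes tested, 4.92% had all Ythdf2-/- libraries below all wild-type libraries, and 3.63% had an unadjusted p under 0.05. In the fit 0 of 9 tested forebrain genes were called (median log2 fold change -0.50), and none of the 3 tested midbrain genes (median -0.64) or the 1 tested hindbrain gene (-0.03).

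Genes of the midbrain and isthmus were low with 1 exception. En2, an engrailed gene of the midbrain and isthmus, had 204, 190 and 194 reads in wild-type replicates 1 to 3 and 70, 137 and 47 in Ythdf2-/- replicates 1 to 3. It was the member of this list with at least 1 CPM in every library, and its groups did not overlap. The log2 fold change was -1.32 (SE 0.37, unadjusted p = 0.0115, adjusted p = 0.999, edgeR's quasi-likelihood test), so it did not pass the test. Over all genes tested, 4.92% had all Ythdf2-/- libraries below all wild-type libraries. The mean of En2 was 16.6 CPM in wild type and 6.63 in Ythdf2-/-, beside 17.5 and 20.5 for Six3 and 18.8 and 17.6 for Emx2. Gbx2 had 7 to 26 reads, Pax8 1 to 30 and En1 1 to 17, Fgf8 and Wnt1 had at most 5, and Pax2 and Pax5 had none.

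Of the hindbrain and spinal cord list, 1 of 6 genes had at least 1 CPM in every library and 3 had no read. Egr2, also called Krox20, had 463 to 1305 reads. It is known as an activator of Hox genes in hindbrain segments but is also an immediate early gene. Phox2a and Barhl1 had at most 3 reads in a library, and Tlx3, Lbx1 and Ptf1a had none. Hoxb2, a known target of Egr2, had no read.

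Other cells could also bring Hox reads into the cultures. Of the mesenchyme and meninges list, 2 of 10 genes had at least 1 CPM in every library, Prrx1 with 569 to 963 reads and Foxc1 with 101 to 259. Pdgfrb, a pericyte and fibroblast receptor, had 347 reads in wild-type replicate 3 and 2 to 41 in the others, and Twist1 had 2 to 42. The defining collagens Col1a1, Col1a2 and Col3a1 had at most 8 reads in a library. The summed level of the list was 65.1 to 132 CPM in wild type and 56.7 to 92.4 in Ythdf2-/-.

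Endothelial and blood genes were lower. Of the endothelial list 1 of 8 genes passed 1 CPM in every library (0 to 39 reads a gene), and its sum was 2.01 to 5.95 CPM in wild type and 3.54 to 4.44 in Ythdf2-/-. Egfl7, Kdr, Flt1 and Tek were its highest genes, Cdh5 had at most 2 reads and Cldn5 none. Of the blood and microglia list 0 of 10 genes passed, and its sum was 2.2 to 4.19 CPM in wild type and 2.09 to 5.85 in Ythdf2-/-. Runx1 had 10 to 57 reads, Cx3cr1 3 to 12, and Ptprc and Spi1, which define leukocytes, were at 0. None of the 4 tested mesenchymal genes (median log2 fold change -0.25), 2 endothelial genes (-0.14) or 2 blood genes (-0.02) was called. Fewer cells of a type and less RNA per cell cannot be told apart in bulk libraries, and the part of any of these cells in the Hox reads was not tested.

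**Figure D4:**
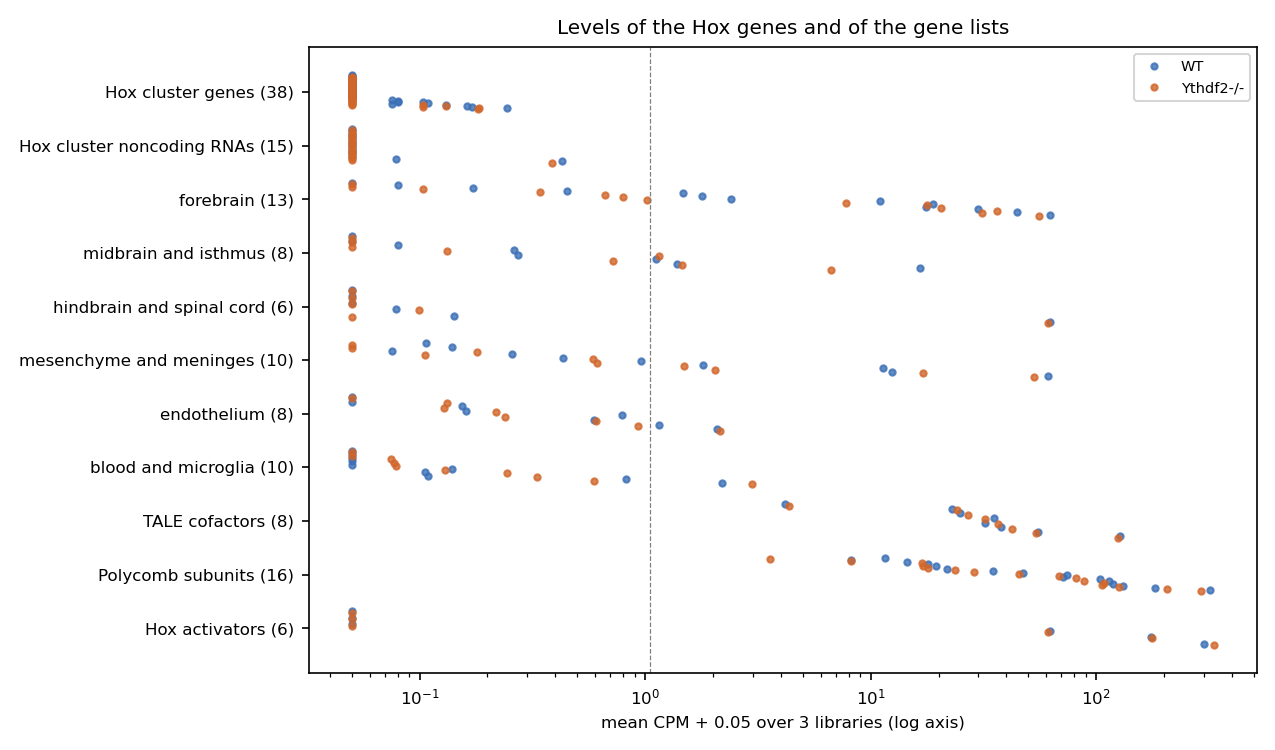
Mean CPM + 0.05 (log axis) of the Hox genes and of the listed genes, as 1 wild-type (blue) and 1 Ythdf2-/- point (orange) per gene, each the mean of 3 libraries (dashed line at 1 CPM, number of genes in brackets). The 38 Hox genes and the cluster noncoding RNAs lie below the line, and the plotted TALE cofactors and Polycomb subunits lie above it.

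Transcripts of the cofactors of Hox proteins were abundant. All 8 TALE cofactor genes read here had at least 1 CPM in every library. Meis2, also a gene of forebrain progenitors, had 1426, 1446 and 1617 reads in wild-type replicates 1 to 3 and 1321, 2195 and 1257 in Ythdf2-/- replicates 1 to 3. Per kilobase, Meis2 was the highest of the 8, with 20.1 to 32.2 RPKM. Meis1, which did not overlap Meis2, followed with 11.2 to 18.7 RPKM, Meis3 with 9.62 to 18.7, Pbx2 with 10.4 to 13.3, Pknox2 with 8.7 to 11.7, Pbx3 with 7.12 to 10.5 and Pknox1 with 8.41 to 10.4, and from Meis1 on each range overlapped that of its neighbours in this order. Pbx4 was lowest, with 2.47 to 4.45 RPKM, and did not overlap the others.

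None of the 8 TALE genes was called. Their log2 fold changes ran from -0.13 to 0.20 and had a median of 0.06, beside -0.01 over all 13112 genes tested. Pknox2 was the one whose genotypes did not overlap in CPM, although its raw reads did. It had 379, 438 and 329 reads in wild-type replicates 1 to 3 and 407, 468 and 504 in Ythdf2-/- replicates 1 to 3, or 32 ± 1.7 and 36.6 ± 3.39 CPM (SD, n = 3 each). The highest wild-type library was at 33.4 CPM and the lowest Ythdf2-/- library at 34.7. Over all genes tested 5.24% had all Ythdf2-/- libraries above all wild-type libraries, and the log2 fold change of Pknox2 was 0.20 (SE 0.13, adjusted p = 0.999, edgeR's quasi-likelihood test).

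Genes for regulators of the clusters were read in the same way. All 16 Polycomb subunits had at least 1 CPM in every library and 0 were called. Their median log2 fold change was -0.07. Rbbp4, a histone-binding subunit shared with other complexes, had 2913 to 4472 reads, Phc2, a subunit of PRC1, 1789 to 3512, Bmi1, a PRC1 RING-finger protein, 1404 to 1768, and Ezh2, the methyltransferase of PRC2, 753 to 1825. Pcgf2 had 312 reads in wild-type replicate 3 and 23 to 55 in the others. Of 6 activators of Hox genes, Cdx1, Cdx2 and Cdx4 had no read in any library. Kat6a and Kmt2a, chromatin regulators that maintain Hox expression, had 3314 to 4639 and 1791 to 2429 reads, and Egr2 is given above. None of the 3 tested activators was called, and their log2 fold changes ran from -0.03 to 0.15.

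A second quantification was deposited with the counts, and it placed the Hox genes differently. It is a table per library with the columns of the program RSEM, whose expected counts added up to 1.97% to 2.4% of the raw counts. There 32 of the 38 Hox genes were at 0 in all libraries and the others summed to 161.32 expected counts over the 6 libraries, of which HoxC held 108.44. All of the HoxC value was Hoxc8, which patterns the thoracic level. Hoxc8 had 20.07, 15.01 and 30.39 expected counts in wild-type replicates 1 to 3 and 10.83, 23.11 and 9.03 in Ythdf2-/- replicates 1 to 3, against a single raw read in the 6 libraries. Its FPKM of 14.6 to 48.6 was above that of Otx2 in 6 of 6 libraries and of Meis2 in 5 of 6, although these genes had 274 to 600 and 1257 to 2195 raw reads. Pax6, with 521 to 1012 raw reads, was above Hoxc8 there, at 77 to 148 FPKM.

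Hoxb4 and Hoxd11 also stood higher in that table. Hoxb4 had 1 to 7 expected counts in a library (FPKM 1.43 to 10.5) against 0 to 2 raw reads, and Hoxd11 had 0 to 7.81 (FPKM 0 to 8.88) against 0 to 3. Hoxa5 was the reverse, with 12 raw reads in all, and was listed at 0. The targeted gene did not follow its labels in this table: Ythdf2 was listed at 0 in 5 libraries and at 1 expected count in Ythdf2-/- replicate 3. The levels above therefore rest on the raw counts, and FPKM values are given as a description of that table.

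The Hox transcripts with the larger expected counts hold words that many genes share. Each RefSeq transcript of a Hox gene was compared on both strands with 45756 transcripts in words of 36 bases. Hoxc8 shared such a word with 830 other genes, Hoxb9 with 359, Hoxd11 with 40 and Hoxb4 with 19, and no other Hox gene shared one with more than 3. These 4 genes held 157.32 of the 161.32 expected counts, and the other 34 held 4. In each of the 4 the widely shared words lay in the 3′ UTR, where a simple repeat was found: 26 copies of CA in Hoxc8, 24 of CT in Hoxb9, 27 of TTC in Hoxd11 and 17 of TTA in Hoxb4. Hoxb9 had just 0.02 to 2.55 expected counts in the Ythdf2-/- libraries and 0 in wild type and in the raw counts, so a large number of sharing genes did not go with a large value in every case. The read length of the libraries is not used here, and the part of shared words in the expected counts was not tested.

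**Figure D5:**
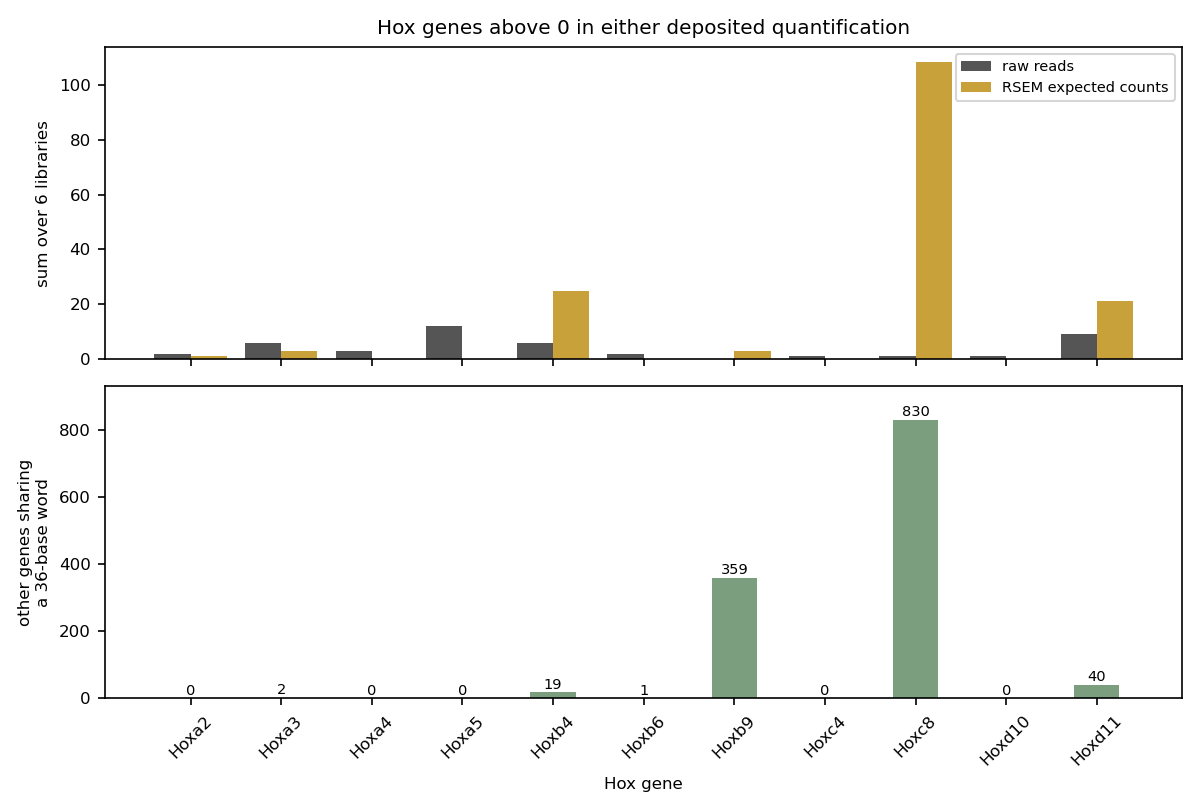
Top, raw reads (grey) and RSEM expected counts (gold) summed over 6 libraries for the 11 Hox genes above 0 in either, and bottom, the number of other genes that share a 36-base word with each. Hoxc8 has 1 raw read, 108.44 expected counts and 830 sharing genes, whereas Hoxa5 has 12 raw reads, 0 expected counts and 0 sharing genes.

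The same gap between tables was counted over all genes, with no test of the difference. Among genes with at most 10 raw reads in the 6 libraries together, 270 of 9169 had 20 or more expected counts (2.94%), as had 3 of the 37 such Hox genes (8.11%), Hoxb4, Hoxc8 and Hoxd11. Conversely, 29.6% to 42.2% of the genes with 100 or more raw reads in a library were listed at 0 in its RSEM table.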

How the data were processed

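RNA-seq input libraries of 3 wild-type and 3 Ythdf2-/- NSPC cultures were grouped by genotype and replicate number from the sample titles. The authors fragmented mRNA, used a strand-specific library kit, ran TopHat against mm10 and deposited counts of reads per gene, as whole numbers with no normalization. The submitters' processing notes name featureCounts, with no strand setting. The authors also deposited expected counts, TPM and FPKM per gene in a table with RSEM's columns, and the notes name RSEM 1.2.15 and Bowtie2 2.2.9. Expected counts were described but not rounded or tested, and the deposited FPKM were tested as log2(FPKM + 1) with limma as an alternative, which understates the change of low genes. The deposited TPM were not used.

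The Hox members, lists and tests were chosen with earlier results of these data known. The test was edgeR 4.0.16 (TMM, filterByExpr, glmQLFit with the robust option, glmQLFTest, genotype only) in R 4.3.3 with Benjamini-Hochberg adjustment over all genes tested, with limma 3.58.1 and DESeq2 1.42.0 as alternatives. It was tested on simulated data with the same spread for every gene and no outlying library, unlike these data. RPKM is CPM per kilobase of the length in the deposited table. Of the 39 members 1, and 6 genes of the lists, are not reported here and are in none of the counts of their groups. Named by rule were Hox genes with 10 or more reads in a library (none of the 38), the 8 TALE cofactors, Ythdf2, the 4 highest genes of a list and the 2 nearest genes beyond each cluster end. The Hox genes, En2's detail, Dlx1, Dlx2, Gsx2, Pdgfrb, Pcgf2, Hotairm1, low list genes and further neighbours were picked with their values known. Positions and transcripts were RefSeq's for GRCm38.p6, and promoters came from a RefSeq table that lacks 16 of the 38. Protein sequences were not used here. Replicate numbers were not used as pairs in the main fit. Same-numbered libraries had correlations of -0.394 to -0.244 in their deviations from the genotype means. With 3 libraries per genotype these values cannot exclude pairing. Python 3.11.15 with scipy 1.17.1 and pandas 2.3.3 was used for the rest.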

Additional observations from a re-analysis of the deposited data

Results flagged for a closer look

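3 Hox genes had a signal in the deposited RSEM table, which the count comparisons do not use, above the limit that a count of 0 allows (3 counts), while their raw counts were at most 3 in every library. Hoxc8 reached 30.39 expected counts, Hoxd11 7.81 and Hoxb4 7 in their highest libraries. Groups of 3 libraries are too small for a check of single libraries that lie far from the rest.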

How the results depend on the processing

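The count of Hox genes called was 0 in the 16 alternative fits, but only the fit without a filter on low counts (10 Hox genes) and the one on deposited FPKM (6) tested any. Without the filter, sample quality weights gave 1 of 10 Hox genes an unadjusted p under 0.05, where the share over all genes was 17%. Log2 fold changes of Hox genes that pass the filter could not be given, since none passed. The number of Hox genes with at least 1 CPM in a genotype was 0 and stayed 0 with 0.5 CPM, 10 counts, 1 RPKM, total-count CPM and each library left out, and became 2 in wild type and 2 in Ythdf2-/- with at least 1 deposited FPKM (the cause was not tested). The summed Hox level ranged from 0.686 to 0.755 CPM in wild type and from 0.117 to 0.637 CPM in Ythdf2-/- with a library left out.

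The alternatives for single genes were added after seeing the data. For Hoxa5 without the filter, 10 kept a negative log2 fold change (-2.05 to -0.23), including -1.05 without wild-type replicate 3. It was 0.65 without wild-type replicate 1, 0.01 without Ythdf2-/- replicate 1 and 0.37 with a term for Y-linked reads, with an adjusted p of at least 0.403 in all 13. The cause was not tested. For Ythdf2, 15 kept it between -2.78 and -2.54, of which 8 took the adjusted p under 0.05 (0.0203 without wild-type replicate 3), and it was 0.32 on deposited FPKM. Also on deposited FPKM, Pknox2 became -0.95. En2 was called by limma-voom with sample quality weights alone (-1.42, adjusted p = 0.0463). The number of all genes called, 0 in edgeR, was 31 with DESeq2, 151 with sample quality weights, 13 with a term for Y-linked reads, 2 without wild-type replicate 3, 2 on deposited FPKM and 1 with DESeq2 size factors, upper-quartile normalization, no filter or 10 counts in every library. With the replicate number as a block, 0 Hox genes and 0 genes in all were called, and Hoxa5 had -0.50. Whether the numbers pair the samples is not known.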
